A study of Mus musculus with 12 samples.

Results

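The laminin chain genes of mouse embryonic fibroblast (MEF) cells were examined in an RNA-seq series. They were taken as the entries named Lama1, Lama2, Lama3, Lama4, Lama5, Lamb1, Lamb2, Lamb3 and Lamc1, which gave 9 genes, 5 for alpha chains, 3 for beta chains and 1 for a gamma chain. All 9 were listed in both tables, among 43280 entries in the Control and 2MUT table and 23930 in the 2-HG table. The series held 12 libraries, 3 in each of 4 groups. All 4 groups were made from MEF cells of the C57BL/6 strain (embryonic day 13.5). The 2MUT cells carried a retroviral vector for stable expression of a cancer-associated human IDH2 mutant, and the Control cells carried the mock vector, both after selection in puromycin. In the other experiment MEF cells received 300 μM of membrane-permeant 2-HG for 24 h, 2-HG(+), or no 2-HG, 2-HG(-), and the sample labels give the solvent DMSO for 24 h to the latter where the study's text calls them non-treated. The vector-transduced cells are selected cultures of a spontaneously immortalized line, and no label says whether the 3 libraries of a group came from separate cultures, so that p-values measure the spread between these libraries, which may be technical. Values are RPM, the reads of a gene scaled to 1000000 reads counted on genes in its library.

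Laminins are secreted glycoproteins of basement membranes, each built from an alpha, a beta and a gamma chain that join in the endoplasmic reticulum through a coiled coil. The alpha chain carries the globular domains that bind integrins and dystroglycan, whereas the beta and gamma chains take part in network assembly and, through gamma 1, in binding nidogen. Fibroblasts and other mesenchymal cells are known mainly for trimers with alpha 2, alpha 4 or alpha 5, whereas the trimers with alpha 3 and beta 3 are known from epithelia and those with alpha 1 from the early embryo. Isocitrate dehydrogenase mutants make 2-HG (2-hydroxyglutarate) from alpha-ketoglutarate, and 2-HG can inhibit dioxygenases that use alpha-ketoglutarate, among them demethylases. For prolyl hydroxylases the study cites reports both of inhibition and of stimulation by 2-HG.

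Promoter windows of RefSeq on GRCm38.p6, from 250 bases before to 50 bases after an annotated start, were matched by symbol to 5 of the 9 genes. The windows of Lama5 and Lamb2 are shown because the log2 changes of these genes had opposite signs to each other in each comparison reported below. They are written 5′ to 3′ on the strand of the gene, and capitals mark GGGCGG on either strand.
Lama5, chr2:180225810-180226109, reverse strand: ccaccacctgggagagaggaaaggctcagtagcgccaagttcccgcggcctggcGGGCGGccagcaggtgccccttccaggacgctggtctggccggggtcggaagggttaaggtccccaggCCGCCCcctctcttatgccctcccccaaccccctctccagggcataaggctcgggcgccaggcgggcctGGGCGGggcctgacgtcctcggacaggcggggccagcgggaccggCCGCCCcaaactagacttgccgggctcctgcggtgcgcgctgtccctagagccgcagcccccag
Lamb2, chr9:108479612-108479911, forward strand: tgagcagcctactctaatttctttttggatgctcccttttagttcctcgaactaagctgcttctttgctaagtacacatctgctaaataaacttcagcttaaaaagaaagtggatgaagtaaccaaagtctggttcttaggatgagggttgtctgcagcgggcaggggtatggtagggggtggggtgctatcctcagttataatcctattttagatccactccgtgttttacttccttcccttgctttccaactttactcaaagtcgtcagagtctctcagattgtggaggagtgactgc
The Lama5 window held 24 CpG dinucleotides and a GC content of 72.7%, and 6563 of all 32851 windows held at least as many CpG dinucleotides. It held GGGCGG at 4 places, beginning at bases 55, 123, 192 and 237 of the window, a motif that 35.7% of all windows held. The Lamb2 window held 4 CpG dinucleotides, where 68.6% of windows held at least as many, a GC content of 44.0% and 0 matches to GGGCGG. Of the core motifs ACGTG and GCGTG, searched on both strands and held by 19.6% and 32.4% of all windows, 0 matches lay in either window, and the same was true of TATAAA (13.6%) and of CACGTG (7.2%), which contains ACGTG. These counts describe the letters of the windows, and no measurement of binding or methylation was analysed here.

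The libraries held between 6472439 and 7313602 reads on genes in the Control and 2MUT table and between 14959318 and 18363768 in the 2-HG table, so that 3 reads, taken as the floor of detection, equal 0.41 to 0.464 RPM and 0.163 to 0.201 RPM. Each gene is read through its own amplicon, and RPM is not scaled by length, so levels are compared between libraries and not between genes. Likewise the tables list different entries, and levels are not compared between them. Fibroblast markers summed to between 11615 and 12682 RPM in Control, between 7909 and 8516 in 2MUT, between 20204 and 21728 in 2-HG(-) and between 13736 and 14970 in 2-HG(+). Of the 9 fibroblast markers 8 were tested in each comparison, of which 7 were lower and 0 higher in 2MUT, and 5 were lower and 1 higher with 2-HG. Among all genes tested 17.3% were lower and 16.5% higher in 2MUT, and 16.7% and 16.1% with 2-HG. Summed markers of other cell types that make laminins stayed at or under 1.9 RPM for epithelium, 3.09 RPM for endothelium, 4.18 RPM for muscle and 5.7 RPM for peripheral glia, with Epcam, Esrp1 and Krt18 at 0 in every library. Blood markers summed to between 7.02 and 14.6 RPM, mostly Cd68, and neuron markers to between 1.32 and 13.5 RPM, mostly Tubb3. With 2-HG, Tubb3 rose from 1.43 ± 0.228 to 5.92 ± 0.495 RPM (log2 change 1.51; limma, Benjamini-Hochberg adjusted p = 7.2e-05), with Snap25 at 0 in both groups, and Cd68 fell from 12.4 ± 1.25 to 8.46 ± 1.01 RPM (-0.51, adjusted p = 0.021), with Ptprc at 0. The part of these marker changes in the results was not tested, and in such bulk libraries fewer cells of a type and less RNA per cell cannot be told apart. Mouse Idh2, whose amplicon was not checked against the human transgene, was at 77.3 ± 5.54 RPM (SD, n = 3) in Control and 49.6 ± 6.39 RPM in 2MUT, a log2 change of -0.63 (limma, Benjamini-Hochberg adjusted p = 0.003). In the 2-HG comparison Idh2 rose from 177 ± 14.3 to 238 ± 19.2 RPM (log2 change 0.43; limma, Benjamini-Hochberg adjusted p = 0.011).

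In 2MUT cells the alpha 4 and gamma 1 chain genes were higher and the alpha 5 chain gene was lower than in Control, and with 2-HG the alpha 4 and beta 2 chain genes were lower. Of the 9 genes 6 passed the filter, an average of 1 RPM or more over a comparison's 6 libraries, in the 2MUT comparison, of which 2 were higher, 1 was lower and 3 did not pass the threshold, a Benjamini-Hochberg adjusted p under 0.05 in limma. Across all 11065 genes tested in that comparison 33.8% passed, 16.5% as higher and 17.3% as lower. In the 2-HG comparison 5 passed the filter, of which 0 were higher, 2 were lower and 3 did not pass, where 32.8% of all 10384 genes passed, 16.1% as higher and 16.7% as lower. The median log2 change of the laminin chain genes tested was 0.06 in 2MUT, beside 0.01 over all genes, and -0.30 with 2-HG, beside -0.02. With so few genes, nothing is read from these counts against the background shares, and the description that follows is of single genes.

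**Figure D1:**
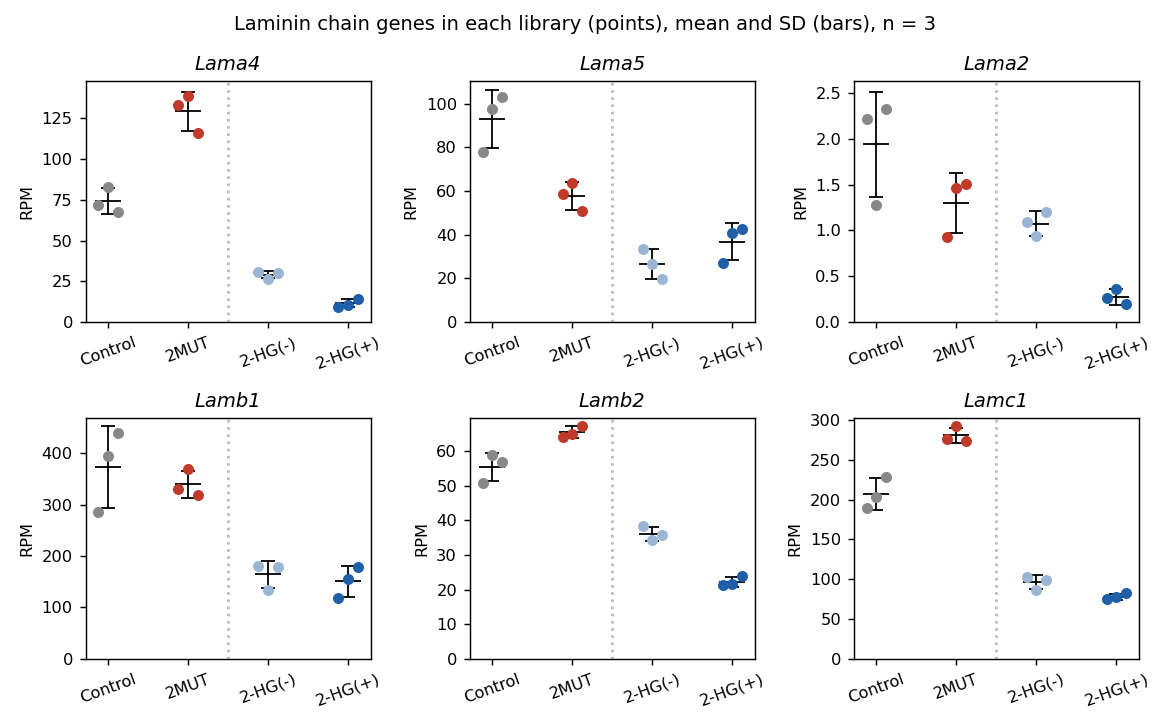
RPM of the 6 laminin chain genes at or above the detection floor in each of the 12 libraries (points), with the mean and SD of the 3 libraries of each group (bars). A dotted line parts the tables, whose levels are not compared. Lama4 is higher in all 3 2MUT libraries (116 to 139 RPM) than in Control (67.8 to 83.0 RPM) and lower in all 3 2-HG(+) libraries (9.45 to 14.3 RPM) than in 2-HG(-) (26.5 to 30.7 RPM).

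Lama4 encodes the alpha 4 chain, a short alpha chain without the amino-terminal arm, made by mesenchymal and endothelial cells. The gene lies on chromosome 10 from 38965515 to 39110188 on the forward strand of GRCm38, with 38 exons in its longest transcript. The Control libraries gave 71.8, 83.0 and 67.8 RPM, and the 2MUT libraries 133, 139 and 116 RPM. All 3 2MUT libraries thus lay above all 3 Control libraries, as was so for 23.5% of all genes tested. The mean rose from 74.2 ± 7.9 to 129 ± 11.9 RPM (SD, n = 3), a log2 change of 0.80 with a standard error of 0.12 and a 95% confidence interval from 0.54 to 1.05 (limma, Benjamini-Hochberg adjusted p = 0.00045). Log2 changes and folds are on the log2(RPM + 1) scale throughout, on which this is 1.74-fold.

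With 2-HG the same gene went the other way. The 2-HG(-) libraries gave 30.7, 26.5 and 30.3 RPM of Lama4, and the 2-HG(+) libraries 9.45, 10.8 and 14.3 RPM. No 2-HG(+) library reached the lowest 2-HG(-) library, a separation in that direction that 24.1% of all genes tested showed. The mean fell from 29.2 ± 2.27 to 11.5 ± 2.51 RPM, a log2 change of -1.29 with a standard error of 0.16 and an interval from -1.64 to -0.93 (limma, Benjamini-Hochberg adjusted p = 0.0003). When each library was left out in turn the change stayed from 0.73 to 0.88 in 2MUT and from -1.44 to -1.17 with 2-HG, past the threshold each time.

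Lama5 encodes the alpha 5 chain, the widespread full-length alpha chain of adult and embryonic basement membranes, and lies on chromosome 2 from 180176373 to 180225859 on the reverse strand, with 79 exons in its longest transcript. Control gave 77.8, 97.7 and 103 RPM and 2MUT 58.9, 63.5 and 51.0 RPM. Every 2MUT library lay below every Control library, which was so for 24.0% of all genes. The mean fell from 92.9 ± 13.3 to 57.8 ± 6.31 RPM, a log2 change of -0.67 with a standard error of 0.14 and an interval from -0.97 to -0.37, or 0.628-fold (limma, Benjamini-Hochberg adjusted p = 0.0031). By an unmoderated per-gene test the same change had an adjusted p of 0.054, past the threshold no longer (limma fit without moderation, Benjamini-Hochberg).

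With 2-HG the Lama5 libraries overlapped. The 2-HG(-) libraries gave 33.3, 26.6 and 19.9 RPM and the 2-HG(+) libraries 27.0, 40.6 and 42.8 RPM. The means were 26.6 ± 6.7 and 36.8 ± 8.58 RPM, with a log2 change of 0.45, a standard error of 0.21 and an interval from -0.02 to 0.93 (limma, Benjamini-Hochberg adjusted p = 0.13), which did not pass the threshold. The overlap came from 2-HG(+) replicate 1, at 27.0 RPM, and 2-HG(-) replicate 1, at 33.3 RPM. Without the former the change was 0.66 and passed (limma, Benjamini-Hochberg adjusted p = 0.026), without the latter it was 0.63 and did not (adjusted p = 0.066), and over all left-out libraries it ranged from 0.27 to 0.66.

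Lama2 encodes the alpha 2 chain, the alpha chain of muscle and peripheral nerve laminins, and lies on chromosome 10 from 26980036 to 27619758 on the reverse strand. Gm36962 overlaps it on the same strand and several other annotated genes on the opposite strand, and whether the counting used the strand is not given in the sources used here. It was found at low levels only, with 2.22, 1.28 and 2.32 RPM in Control and 0.927, 1.46 and 1.51 RPM in 2MUT, which are 41 and 27 reads in all. These groups overlapped, and the log2 change of -0.34 had an interval from -0.91 to 0.23 (limma, Benjamini-Hochberg adjusted p = 0.33). The size at these low counts moved with the scale, to -0.53 on log2(RPM + 0.1) and -0.57 in edgeR and DESeq2, and with the library left out, from -0.52 without Control replicate 2 to -0.22 without 2MUT replicate 1, and it did not pass in any of these. In the 2-HG table the libraries gave 1.09, 0.936 and 1.2 RPM without and 0.264, 0.361 and 0.196 RPM with 2-HG, or 20, 14 and 20 reads against 4, 6 and 3. The groups did not overlap, but the mean over the 6 libraries, 0.674 RPM, was under the filter, and the exact two-sided permutation test gave p = 0.1, the smallest that 3 against 3 libraries allow. With no filter, the log2(RPM + 1) change was -0.70 (limma, Benjamini-Hochberg adjusted p = 0.001 over 18150 entries), and on whole reads it was -1.92 (edgeR's quasi-likelihood test without a filter, an alternative chosen after the data were seen, Benjamini-Hochberg adjusted p = 0.0021).

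Lama1 and Lama3, which encode the alpha 1 chain of the early embryo and the alpha 3 chain of epithelial laminins, were under the floor. Lama1 had 1 read in Control replicate 2 and 0 in the other 11 libraries, and Lama3 had 1 read in Control replicate 1 and 0 elsewhere. At these depths neither was detectable, and a level under the floor of 0.163 to 0.464 RPM cannot be told from 0. Of the 5 alpha chain genes, then, 3 were above the floor in every Control library, Lama2, Lama4 and Lama5.

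Lamb1 encodes the beta 1 chain, the common beta chain of most laminins, and lies on chromosome 12 from 31265234 to 31329644 on the forward strand, with 33 exons in its longest transcript. Control gave 286, 394 and 440 RPM and 2MUT 331, 369 and 318 RPM, so that all 3 2MUT libraries lay within the range of Control. The log2 change was -0.12 with an interval from -0.43 to 0.20 (limma, Benjamini-Hochberg adjusted p = 0.56). The 2-HG(-) libraries gave 181, 134 and 178 RPM and the 2-HG(+) libraries 119, 155 and 178 RPM, also overlapping, with a change of -0.13 and an interval from -0.50 to 0.24 (limma, Benjamini-Hochberg adjusted p = 0.58). The intervals leave room for a change in either direction of up to about the sizes they name, and the sign itself turned when single libraries were left out. Without Control replicate 3 the 2MUT change was 0.01, without Control replicate 1 it was -0.30 with an adjusted p of 0.048 in limma (Benjamini-Hochberg), and without 2-HG(+) replicate 1 the 2-HG change was 0.03.

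Lamb2 encodes the beta 2 chain, known from the neuromuscular junction and the kidney glomerulus, and lies on chromosome 9 from 108479736 to 108490530 on the forward strand, with 33 exons in its longest transcript. Control gave 50.9, 58.8 and 56.7 RPM and 2MUT 64.0, 65.0 and 67.3 RPM. All 3 2MUT libraries were above Control, but the log2 change of 0.24, with an interval from -0.01 to 0.48, did not pass the threshold (limma, Benjamini-Hochberg adjusted p = 0.13). The 2-HG(-) libraries gave 38.3, 34.2 and 35.9 RPM and the 2-HG(+) libraries 21.3, 21.5 and 23.8 RPM. Here no library overlapped, and the mean fell from 36.2 ± 2.07 to 22.2 ± 1.38 RPM, a log2 change of -0.68 with a standard error of 0.11 and an interval from -0.93 to -0.43, or 0.624-fold (limma, Benjamini-Hochberg adjusted p = 0.0014). The change stayed between -0.73 and -0.64 when each library was left out in turn. Lamb3, which encodes the beta 3 chain of epithelial laminins, was at most at 0.273 RPM in any library, with 2 reads in Control, 0 in 2MUT, 3 in 2-HG(-) and 3 in 2-HG(+), under the floor everywhere.

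Lamc1 encodes the gamma 1 chain, which most laminin trimers share and which binds nidogen. The gene lies on chromosome 1 from 153218922 to 153332786 on the reverse strand, with 28 exons in its longest transcript, and the annotated entries Gm38009, on the same strand, and Gm8818, on the other, overlap it. Control gave 190, 203 and 229 RPM and 2MUT 276, 292 and 274 RPM. All 3 2MUT libraries were above Control, and the mean rose from 207 ± 20 to 281 ± 10 RPM, a log2 change of 0.44 with a standard error of 0.10 and an interval from 0.23 to 0.66, or 1.36-fold (limma, Benjamini-Hochberg adjusted p = 0.0053). The 2-HG(-) libraries gave 103, 86.8 and 99.1 RPM and the 2-HG(+) libraries 74.6, 77.3 and 82.1 RPM. These did not overlap either, the 2-HG(+) libraries lying lower, but the log2 change of -0.30, with an interval from -0.52 to -0.07, just missed the threshold (limma, Benjamini-Hochberg adjusted p = 0.051). The call for this gene with 2-HG turned with the settings, at changes from -0.32 to -0.28. It passed in limma under quantile scaling (Benjamini-Hochberg adjusted p = 0.033) and median-of-ratios scaling (0.047), in edgeR (0.042) and in DESeq2 (0.041), but not in limma without a filter (0.066) or in edgeR without a filter (0.1).

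Across the chains, 4 of the 6 genes tested in the 2MUT comparison and 3 of the 5 tested in the 2-HG comparison had groups that did not overlap, beside 47.5% and 46.3% of all genes tested. Lama4, Lamb2 and Lamc1 had a log2 change above 0 in 2MUT and below 0 with 2-HG, as had 29.4% of the 9594 genes tested in both, and Lama5 had the opposite signs, as had 26.5%. Lama4 was the 1 laminin chain gene past the threshold in both comparisons as tested here. It was higher in 2MUT and lower with 2-HG, a combination that 4.2% of all genes tested in both showed. Lamc1 joined Lama4 under some of the settings named above. Lama5 passed in both, in the opposite directions, in edgeR without a filter and when 2-HG(+) replicate 1 was left out. Over the 12 libraries, after the mean of each table was subtracted, Pearson's r of log2(RPM + 1) was 0.95 between Lama4 and Lamb2, 0.84 between Lama4 and Lamc1 and 0.78 between Lamb2 and Lamc1. For Lama5 r was -0.60 with Lama4, -0.58 with Lamc1 and -0.52 with Lamb2, and for Lamb1 it lay between 0.24 and 0.41 with each of the others. These values describe libraries that share 4 group means, and no p is given for them.

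Whether the change in 2MUT differed from the change with 2-HG was tested over the 12 libraries as a contrast of the changes, for the 9594 genes tested in both. Of these 39.4% passed, 19.9% with the 2MUT change above and 19.5% with it below the 2-HG change. The comparisons share no library. Of the 5 laminin chain genes 4 passed. For Lama4 the 2MUT change was above the 2-HG change by 2.08 (interval from 1.64 to 2.52; limma, Benjamini-Hochberg adjusted p = 3.6e-06), for Lamb2 by 0.92 (0.60 to 1.23, adjusted p = 0.00023) and for Lamc1 by 0.74 (0.44 to 1.04, adjusted p = 0.00095). For Lama5 the difference was -1.12 (-1.72 to -0.52, limma, Benjamini-Hochberg adjusted p = 0.006). Lamb1 had a difference of 0.01 with an interval from -0.52 to 0.54 (limma, Benjamini-Hochberg adjusted p = 0.97). The experiments differ in more than the source of 2-HG, since the cells of one were transduced and selected and those of the other were treated for 24 h, and the contrast cannot tell these apart.

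**Figure D2:**
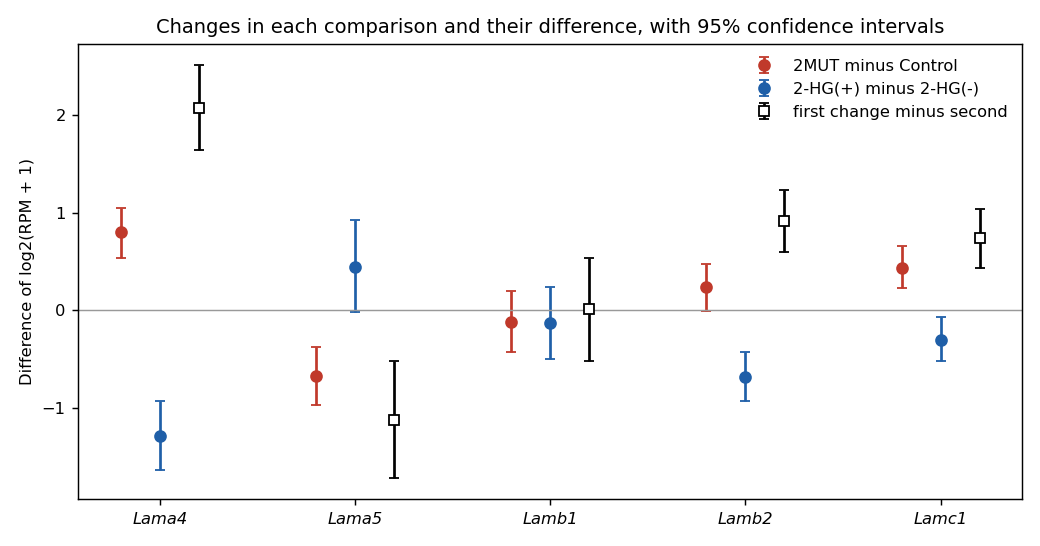
Log2 changes of RPM + 1 with their 95% confidence intervals for the 5 laminin chain genes tested in both comparisons, in 2MUT against Control (red), in 2-HG(+) against 2-HG(-) (blue), and the first change minus the second (open squares). The interval of the difference lies above 0 for Lama4, Lamb2 and Lamc1, below 0 for Lama5 and across 0 for Lamb1.

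Pairs of chains, either alternatives for the same place in a trimer or chains that join in a trimer, were also compared within each library, where a scaling of the library cancels. Because each gene has its own amplicon, such a ratio was compared between libraries and is not a ratio of transcripts. The ratio of Lama5 to Lama4, the pair of alpha chains above 10 RPM on average in each table, was 1.08, 1.18 and 1.52 in Control and 0.443, 0.456 and 0.439 in 2MUT. It was 1.09, 1.0 and 0.659 in 2-HG(-) and 2.85, 3.78 and 2.99 in 2-HG(+). The libraries of each comparison did not overlap, and the log2 ratio changed by -1.47 in 2MUT and by 1.74 with 2-HG. The exact two-sided permutation test gave p = 0.1 for each, the smallest that 3 against 3 libraries allow, and an adjusted p of 0.133 over the 8 ratio tests run, so no ratio could pass the threshold.

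The ratio of the beta chains, Lamb2 to Lamb1, changed by 0.35 on the log2 scale in 2MUT, where libraries overlapped (exact permutation p = 0.2, adjusted 0.229), and by -0.55 with 2-HG, where they did not (exact permutation p = 0.1, adjusted 0.133). Lama4 against Lamc1 changed by 0.35 in 2MUT and by -0.99 with 2-HG, with no overlap in either, though without Control replicate 3 the former was 0.22. Lamb1 against Lamc1 changed by -0.56 in 2MUT without overlap and by 0.17 with 2-HG with overlap (exact permutation p = 0.3), the latter ranging from 0.08 to 0.29 when each library was left out in turn. Read by trimer, laminin-411 and laminin-421 hold the chain genes Lama4 and Lamc1 that rose in 2MUT together with Lamb1 or Lamb2, which did not pass there. Laminin-511 and laminin-521 hold Lama5, which fell in 2MUT, beside Lamc1, which rose. With 2-HG, Lama4 and Lamb2 of laminin-421 fell by 1.29 and 0.68, Lamc1 had a change of -0.30 that did not pass, and in laminin-411 the change of Lamb1, -0.13, did not pass either. No protein or assembled trimer was measured in these libraries.

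**Figure D3:**
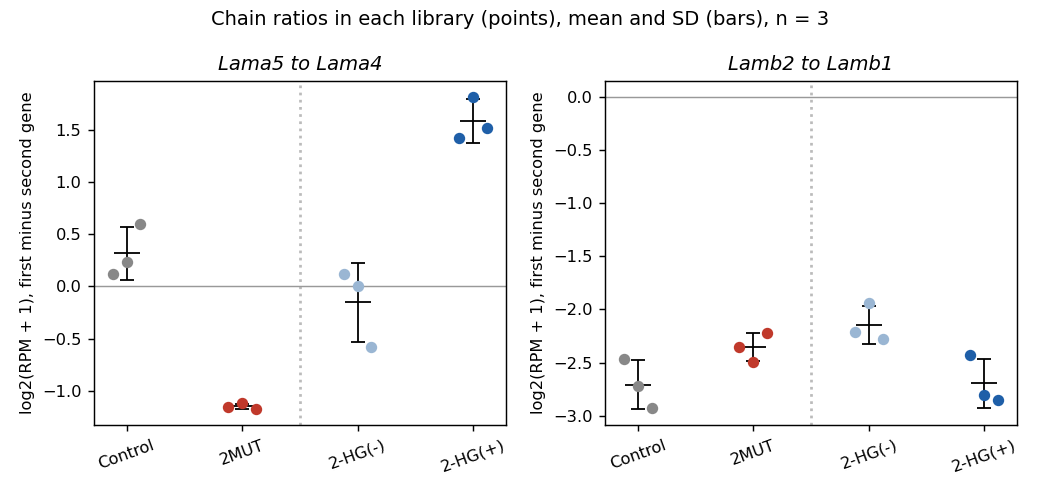
Difference of log2(RPM + 1) between Lama5 and Lama4 (left) and between Lamb2 and Lamb1 (right) within each library (points), with the mean and SD of the 3 libraries of a group (bars) and a dotted line between the tables. The Lama5 to Lama4 difference falls from 0.31 ± 0.25 in Control to -1.15 ± 0.03 in 2MUT and goes from -0.15 ± 0.37 in 2-HG(-) to 1.59 ± 0.21 in 2-HG(+).

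Genes most like a laminin chain gene over the 12 libraries were taken by Pearson's r after the mean of each table was subtracted, among 9593 genes. For Lama4 these were Tnrc18 (r = 0.989), Ablim1 (0.985) and Pip5k1c (0.984), with log2 changes of 0.71, 0.81 and 0.19 in 2MUT and of -1.18, -0.94 and -0.46 with 2-HG. For Lamc1 they were Sntb2 (0.983), Steap2 (0.979), Lats2 (0.979), Nacc2 (0.978) and Foxred2 (0.971), of which Sntb2 encodes a syntrophin of the dystrophin complex and Lats2 a kinase of the Hippo pathway. Their log2 changes lay from 0.69 to 1.61 in 2MUT and from -0.93 to -0.62 with 2-HG, larger in size than those of Lamc1 in both. The libraries share 4 group means, and the values of r are a description over the 12 libraries.

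The partners of laminin were taken as a list of 48 genes, 18 for other basement membrane proteins, 13 for receptors, 13 for enzymes that build the laminin-binding sugar of dystroglycan and 4 for proteases that cut laminins or their neighbours. In 2MUT 37 were tested, of which 17 were higher, 7 lower and 13 did not pass, beside 16.5% higher and 17.3% lower among all genes tested, with a median log2 change of 0.27 beside 0.01 over all genes. With 2-HG 35 were tested, of which 3 were higher, 16 lower and 16 did not pass, beside 16.1% higher and 16.7% lower among all genes, with a median of -0.33 beside -0.02. B4gat1 is listed as B3gnt1 in the Control and 2MUT table, where it was lower (-0.46), and had a change of -0.24 with 2-HG that did not pass. Of the 34 others tested in both, which carry the same name in both tables, 7 were higher in 2MUT and lower with 2-HG as Lama4 was, namely Col4a1, Col4a2, Fbln2, Itga1, Itga3, Mmp2 and Sdc4, 5 were lower in both, namely Agrn, Col4a5, Col4a6, Fbln1 and Nid2, and 2 were higher in both, Itga6 and Rxylt1. Among all genes tested in both, 4.2%, 3.06% and 1.5% showed these combinations, and no test was made of the list against them.

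Among the basement membrane proteins 5 were higher, 5 lower and 5 not past the threshold in 2MUT, with a median of -0.04, whereas with 2-HG 11 were lower, 0 higher and 3 not past it, with a median of -0.55. Among all genes tested 16.5% were higher and 17.3% lower in 2MUT and 16.1% and 16.7% with 2-HG, with medians of 0.01 and -0.02. The nidogens, which link the gamma 1 arm to collagen IV, parted in 2MUT. Nid1 rose from 8563 ± 425 to 12847 ± 661 RPM (log2 change 0.59; limma, Benjamini-Hochberg adjusted p = 0.0004), and Nid2 fell from between 89.8 and 106 RPM to between 40.7 and 61.3 RPM (-0.96, adjusted p = 0.00058). With 2-HG Nid2 fell from 42.5 ± 4.39 to 13.2 ± 1.35 RPM (log2 change -1.61; limma, Benjamini-Hochberg adjusted p = 2.4e-05), while Nid1, at 1609 ± 102 and 1318 ± 42.2 RPM, had a change of -0.29 that did not pass.

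The collagen IV chains likewise fell into pairs. Col4a1 and Col4a2, whose products form the common trimer and whose genes share a promoter region, rose by 0.67 and 0.37 in 2MUT and changed by -0.52 and -0.64 with 2-HG, past the threshold each time. Col4a5 changed by -0.81 and -0.95 and Col4a6, its neighbour in the genome, by -0.46 and -1.31, lower past the threshold in both comparisons. Col4a3 and Col4a4 were under the floor. Agrn, the heparan sulfate proteoglycan agrin that binds laminin and dystroglycan, was lower in both, from 86.5 ± 8.73 to 53.8 ± 3.02 RPM in 2MUT and from 21.3 ± 3.12 to 14.1 ± 2.83 RPM with 2-HG. Fbln1, a fibulin, had the largest fall of the list in 2MUT, of -1.54, at a Control mean of 6.4 RPM, and fell by 0.90 with 2-HG. Ntn1, encoding the laminin-related guidance protein netrin 1, had the largest rise of the list in 2MUT, from 88.7 ± 10.1 to 278 ± 7.37 RPM (log2 change 1.64; limma, Benjamini-Hochberg adjusted p = 1.5e-06), and was at 314 ± 36.9 and 302 ± 22.8 RPM without and with 2-HG, which overlapped.

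Of the 9 receptor genes tested in 2MUT 7 were higher and 0 lower, with a median log2 change of 0.58, and of the 9 tested with 2-HG 1 was higher, 3 were lower and 5 did not pass, with a median of -0.23. Over all genes the shares were 16.5% higher and 17.3% lower in 2MUT, with a median of 0.01, and 16.1% and 16.7% with 2-HG, with a median of -0.02. Itgb1, the beta 1 subunit of most laminin-binding integrins, rose from 246 ± 45.5 to 427 ± 32.8 RPM in 2MUT (log2 change 0.80; limma, Benjamini-Hochberg adjusted p = 0.00066) and overlapped with 2-HG at a change of -0.23. Among its partners Itga1 changed by 0.82 and -0.59 and Itga3 by 0.58 and -0.34, and Itga6, which binds alpha 5 laminins, was higher in both at 0.92 and 0.41. Dag1, encoding dystroglycan, rose from 350 ± 76.1 to 525 ± 25.0 RPM in 2MUT (log2 change 0.61; limma, Benjamini-Hochberg adjusted p = 0.006) and had a change of -0.49 with 2-HG that did not pass. The muscle laminin receptor subunit Itga7 was spread from 17.9 to 136 RPM among the 2MUT libraries, beside 53.9 to 67.4 RPM in Control, so that its change of 0.13 has a standard error of 0.55. Itga2 and Bcam were at 0 in every library, and Itgb4 reached at most 0.427 RPM.

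Of the enzymes that glycosylate dystroglycan 10 were tested in 2MUT, 4 higher, 1 lower and 5 not past the threshold, and 9 with 2-HG, 2 higher, 0 lower and 7 not past it, where 33.8% and 32.8% of all genes passed in either direction. Their medians were 0.30 and 0.10, beside 0.01 and -0.02 over all genes. Pomk, a kinase of the core sugar, rose by 0.90 in 2MUT and had a change of 0.00 with 2-HG. Rxylt1, a xylosyltransferase of the dystroglycan sugar listed as Tmem5, was higher in both, by 0.62 and 0.61, and B3galnt2 was higher with 2-HG, by 0.54. Among the proteases Mmp14 fell by 0.57 in 2MUT, and Mmp2 rose by 0.44 in 2MUT and fell by 0.74 with 2-HG. Bmp1, a procollagen proteinase that also trims laminin chains, fell by 0.62 with 2-HG. The changes of Mmp14 with 2-HG, -0.38, and of Bmp1 in 2MUT, -0.08, did not pass.

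**Figure D4:**
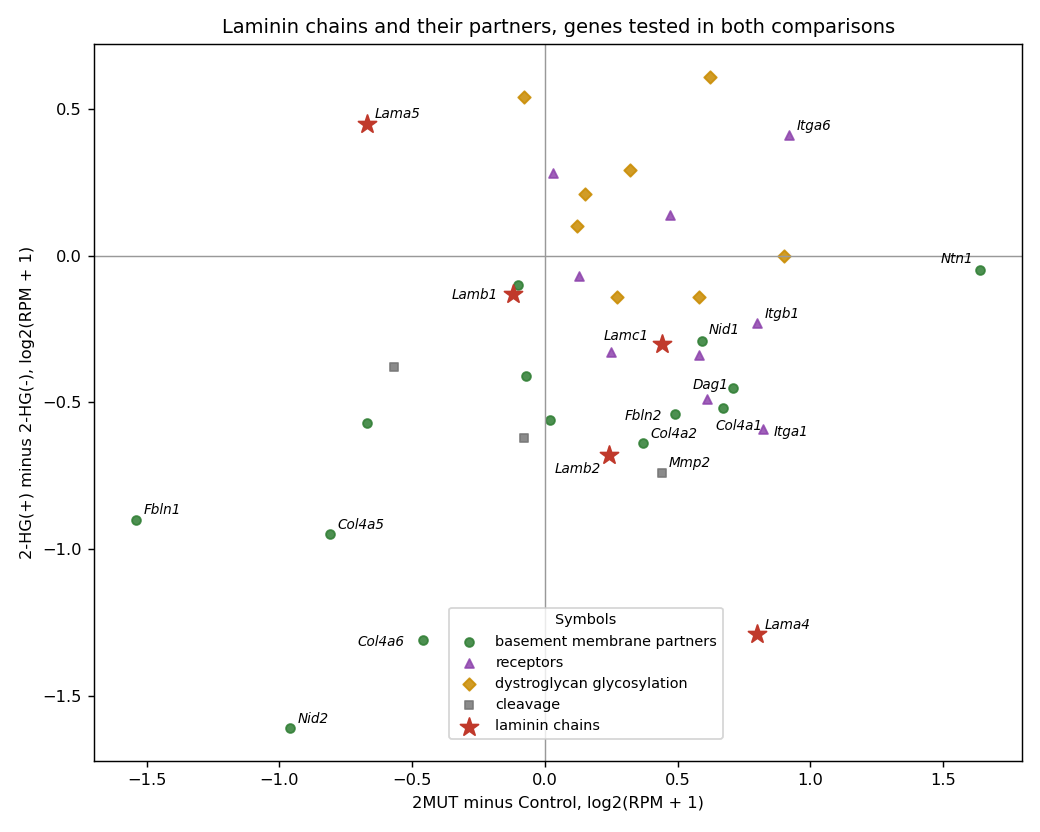
Log2 change of RPM + 1 in 2MUT against Control (x axis) and in 2-HG(+) against 2-HG(-) (y axis) for the 5 laminin chain genes (stars) and the 34 partner genes tested in both under the same name in both tables, marked by their role and in part named (B4gat1, which changed its name, is not drawn). Lama4 lies lowest on the right, at 0.80 and -1.29, and Nid2, Col4a5, Col4a6 and Fbln1 lie at the lower left, below 0 in both comparisons.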

How the data were processed

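Total RNA of MEF cells was sequenced by the authors from Ion AmpliSeq libraries on the Ion Proton, aligned with TMAP to the AmpliSeq mouse reference and counted per gene with the AmpliSeqRNA plug-in. The values that the authors deposited, with each experiment in its own table, are RPM (reads of a gene scaled to a library total of 1000000 on all genes), and 0 columns were left without a sample. The genome build is not given in the sources used here, so coordinates come from GENCODE M21 on GRCm38, matched by symbol, and the positions of the amplicons were not used. A repeated name was found for 4 entries of either table.

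The members, gene lists and tests were chosen with earlier results of these data known. limma 3.58.1 in R 4.3.3, with a mean-variance trend, was run on log2(RPM + 1) over all genes that averaged 1 RPM or more over a comparison's 6 libraries, with Benjamini-Hochberg adjustment over all genes tested and a threshold of 0.05. The difference of the changes was a contrast over the 12 libraries. Chain ratios were tested by exact two-sided permutation. Partner genes named are the 5 largest rises and 5 largest falls per comparison among those past the threshold whose higher group averaged 10 RPM or more. Further partners were named after their values were seen, for example to complete pairs, receptors and proteases. Every value lay within 0.001 RPM of a whole number of reads, so as alternatives whole reads were recovered for edgeR 4.0.16 and for DESeq2 1.42.0. The others were log2(RPM + 0.1), a floor of 1 RPM, a filter at 10 RPM or none at all, quantile and median-of-ratios scaling, no trend, no moderation, the replicate number as a block and leaving out each library. Intervals and floors cover counting error or the spread between libraries only. The limma test of each comparison was checked on simulated counts with known changes. The contrast, the permutation test and the alternatives were not checked in this way. Plots were drawn with matplotlib 3.10.9.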

Additional observations from a re-analysis of the deposited data

Results flagged for a closer look

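The change in 2MUT differed from the change with 2-HG for 4 laminin chain genes, by a test of the difference itself (limma over 12 libraries, Benjamini-Hochberg over 9594 genes, of which 39.4% passed). For Lama4 the difference was 2.08 on the log2 scale, between a change of 0.80 in 2MUT and of -1.29 with 2-HG, and the libraries did not overlap in either comparison. For Lamb2 it was 0.92, between 0.24, which did not pass by itself, and -0.68. For Lamc1 it was 0.74, between 0.44 and -0.30, of which the latter did not pass by itself. For Lama5 it was -1.12, between -0.67 and 0.45, of which the latter did not pass by itself and rested on libraries that overlapped. Transduction with selection and treatment for 24 h cannot be told apart from the source of 2-HG in these differences.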

How the results depend on the processing

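Lama4 in both comparisons, Lamc1 in 2MUT and Lamb2 with 2-HG kept their direction and stayed past the threshold under every alternative run, as did the differences between the comparisons for Lama4, Lama5, Lamb2 and Lamc1. The 4 chain ratios kept their sign with log2(RPM + 0.1) and with each library left out, and the scaling and block alternatives run for them can hardly move a ratio within a library or its mean difference. No scaling moved the median change of all genes by more than 0.025. With the unmoderated test the counts of all genes were 1021 higher and 1223 lower in 2MUT and 1098 and 1139 with 2-HG, those of the partner genes were 8 higher in 2MUT and 1 higher and 10 lower with 2-HG, and 0 laminin chain genes were lower in 2MUT, where Lama5 had an adjusted p of 0.054. Lamc1 with 2-HG passed under quantile scaling (-0.32, adjusted p = 0.033), median-of-ratios scaling (-0.28, 0.047), edgeR, DESeq2, the filter at 10 RPM and without 2-HG(-) replicate 2 (-0.37, 0.028), and over all alternatives with all libraries its adjusted p lay between 0.033 and 0.13. With edgeR without a filter, chosen after the data were seen, 1 laminin chain gene was higher with 2-HG (Lama5, 0.48, adjusted p = 0.0046), and the Lamb1 difference was -0.02. With each library left out in turn, 0 to 1 laminin chain genes were higher with 2-HG (1 without 2-HG(+) replicate 1), 1 to 2 were lower in 2MUT (2 without Control replicate 1), 11 to 16 partner genes were higher in 2MUT (11 without 2MUT replicate 3), and 9 to 16 were lower with 2-HG (10, 9 and 10 without 2-HG(-) replicate 1, 2-HG(-) replicate 3 and 2-HG(+) replicate 2). The Lamb1 change then ranged from -0.30 to 0.01 in 2MUT and from -0.27 to 0.03 with 2-HG, and its difference from -0.17 to 0.15. The cause of these moves was not tested.

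Same-numbered libraries did not deviate together (r of 0.071, 0.029 and 0.032 in the 2MUT comparison and -0.457, -0.158 and 0.057 in the other). Not every library correlated best with its own number, so the numbers were not taken as pairs. Between libraries of different number in the 2-HG comparison r ranged from -0.414 to 0.48. The highest was for 2-HG(-) replicate 2 with 2-HG(+) replicate 1, and the cause was not tested. With the replicate number as a block 1911 genes were higher and 1987 lower in 2MUT and 1217 and 1286 with 2-HG, and no call of a laminin chain gene changed. Depth limits Lama1, Lama3 and Lamb3, which had at most 2 reads in any library, and Lama2 with 2-HG, at 3 to 6 reads a library.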
